A study of Mus musculus with 3 samples.

Results

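The genes described here are 9 genes of the MHC class I antigen presentation pathway, of 18478 genes in the count table: B2m, H2-K1, H2-D1, Tap1, Tap2, Tapbp, Psmb8, Psmb9 and Psmb10. They were chosen by function, with earlier results of these data known, and all 9 had counts in each of 3 sequencing runs. Class I molecules show short peptides from inside a cell to CD8 T cells. The immunoproteasome cuts proteins into such peptides, the TAP transporter moves them into the endoplasmic reticulum, tapasin holds the empty class I molecule beside TAP, and the loaded heavy chain travels to the surface with beta-2-microglobulin. Most cells hold low amounts of this machinery at rest, and interferons and NF-kB signals are the textbook inducers of its genes.

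The cells came from retinas of adult mice of 1 genotype, Yap5SA+/tg with ROSA26R-tdTomato+/tg and Glast-CreERT+/tg. Tamoxifen activates the Cre recombinase in cells that use the Glast promoter, which are Müller glia and, in the retina, also astrocytes. Yap5SA is a form of the coactivator YAP that escapes inhibition by Hippo signalling. All retinas then received N-methyl-D-aspartate (NMDA), an excitotoxin that kills retinal neurons, and tdTomato-positive cells were sorted after 2 days and sequenced with 10X Chromium 3' v2 kits. The labels name 3 runs of this single group and neither animals nor controls, so every comparison sets cell classes within runs against each other. The p-values rest on the spread between runs, which may be technical and which the test estimates partly from all genes together.

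After filtering, 7668, 8799 and 8205 cells remained in runs 1, 2 and 3, with median totals of 9665, 11207 and 9418 unique molecular identifiers (UMIs, each standing for 1 captured RNA molecule). Classes were cut by the level of 1 gene or gene group per 10000 UMIs of a cell. Ccl2, a chemokine that attracts monocytes, divided glia into Ccl2-high cells with at least 10 per 10000 and Ccl2-low cells with under 1. Ccl2-high cells numbered 34, 865 and 147 in runs 1, 2 and 3, so 865 of 1046 came from run 2, and Ccl2-low cells numbered 7136, 6376 and 7110. Igfbp2, an insulin-like growth factor binding protein, gave 6518 Igfbp2-high cells with at least 5 per 10000 and 14999 Igfbp2-low cells with under 1. Cells with at least 10 per 10000 of C1qa, C1qb and C1qc together, complement genes of microglia, were called C1q-high and numbered 40, 15 and 7. They were left out of the other classes and compared with cells under 1.

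The limits cut a continuous range of levels for the first 2 genes. Just outside and inside them lay 505 cells with Ccl2 at 5 to under 10 and 210 at 10 to under 15. For Igfbp2, 578 cells lay at 2.5 to under 5 and 400 at 5 to under 7.5. For the C1q genes only 5 cells lay at 5 to under 10 and 1 at 10 to under 15.

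On mm10 (GENCODE M21), 7 of the genes lie in the major histocompatibility complex of chromosome 17. From 34181987 to 34216321 lie Psmb9, Tap1, Psmb8 and Tap2, side by side. Psmb9 on the minus strand (34181987 to 34187764) overlaps the start of Tap1 on the plus strand (34187553 to 34197225). H2-K1 lies at 33996017 to 34000347 and H2-D1 at 35262730 to 35267499. B2m is on chromosome 2 at 122147686 to 122153083 and Psmb10 on chromosome 8 at 105935735 to 105938444. RefSeq promoters, 250 bases before to 50 after the start site (GRCm38.p6), were matched for 8 of the 9 genes. Those of 3 chain genes and of the Tap1 and Psmb9 pair are shown as the genes of the surface molecule and the gene pair that starts from 1 shared stretch. Capitals mark matches to the interferon-stimulated response element (GAAA, 2 bases of any kind, GAAA) or to the NF-kB consensus, searched on both strands. Variants of these spellings were not searched, so any variant stays in lower case, also in the windows of H2-K1 and H2-D1.
B2m, chr2:122147437-122147736, plus strand: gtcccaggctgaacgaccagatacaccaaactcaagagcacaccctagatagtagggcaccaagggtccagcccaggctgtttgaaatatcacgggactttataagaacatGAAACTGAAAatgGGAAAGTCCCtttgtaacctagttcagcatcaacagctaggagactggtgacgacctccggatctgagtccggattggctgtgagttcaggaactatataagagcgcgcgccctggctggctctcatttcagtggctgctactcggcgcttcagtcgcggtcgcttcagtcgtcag
H2-K1, chr17:34000298-34000597, minus strand: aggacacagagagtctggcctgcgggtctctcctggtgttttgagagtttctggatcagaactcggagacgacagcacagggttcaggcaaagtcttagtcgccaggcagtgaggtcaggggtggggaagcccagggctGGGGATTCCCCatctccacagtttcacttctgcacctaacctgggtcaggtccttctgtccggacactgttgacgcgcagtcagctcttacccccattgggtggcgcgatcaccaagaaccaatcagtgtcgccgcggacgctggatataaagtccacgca
H2-D1, chr17:35262844-35263143, plus strand: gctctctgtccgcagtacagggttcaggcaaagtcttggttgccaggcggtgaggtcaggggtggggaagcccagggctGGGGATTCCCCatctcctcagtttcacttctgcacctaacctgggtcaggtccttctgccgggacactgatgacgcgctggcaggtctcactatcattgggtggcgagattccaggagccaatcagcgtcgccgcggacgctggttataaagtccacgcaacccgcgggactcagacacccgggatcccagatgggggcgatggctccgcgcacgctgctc
Tap1, chr17:34187306-34187605, plus strand: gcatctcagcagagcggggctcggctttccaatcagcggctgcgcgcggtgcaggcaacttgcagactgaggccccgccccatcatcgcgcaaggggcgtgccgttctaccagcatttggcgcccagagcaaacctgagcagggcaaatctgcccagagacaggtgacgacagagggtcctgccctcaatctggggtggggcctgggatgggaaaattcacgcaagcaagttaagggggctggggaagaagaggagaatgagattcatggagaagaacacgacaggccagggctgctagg

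The B2m window held the response element with its first base at position -139 from the start site and an NF-kB match at -126. H2-K1 and H2-D1 carried the same pair of overlapping NF-kB matches, with first bases at -111 and -110 in H2-K1 and at -171 and -170 in H2-D1. Another RefSeq entry of H2-K1, not shown, has a different start site, which puts the same pair at -125 and -124. Of 32841 promoters of this length, 3.44% held the response element and 8.46% the NF-kB consensus. Tap1 and Psmb9 start 226 bases apart on opposite strands, and their windows share 275 bases, so the stretch shown serves both. The windows of Tap1, Tapbp, Psmb8, Psmb9 and Psmb10 held neither motif as spelled here; that of Psmb8 held the gamma-activated site TTCNNNGAA at -97, which 8.30% of promoters held. The letters are a description of the windows and do not show that a factor binds.

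Over all cells, run 2 carried the highest level of each of the 9 genes. B2m, the light chain, stood at 772, 1159 and 798 counts per 1000000 UMIs (CPM) in runs 1, 2 and 3. Tap1 differed most, at 12.8, 47.3 and 16.8 CPM, and Psmb9 stood at 18.3, 52.4 and 34.0 CPM. Ccl2 itself stood at 48.7, 665 and 111 CPM, also highest in run 2. The runs are single libraries of 1 condition, and differences between them were not tested.

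**Figure D1:**
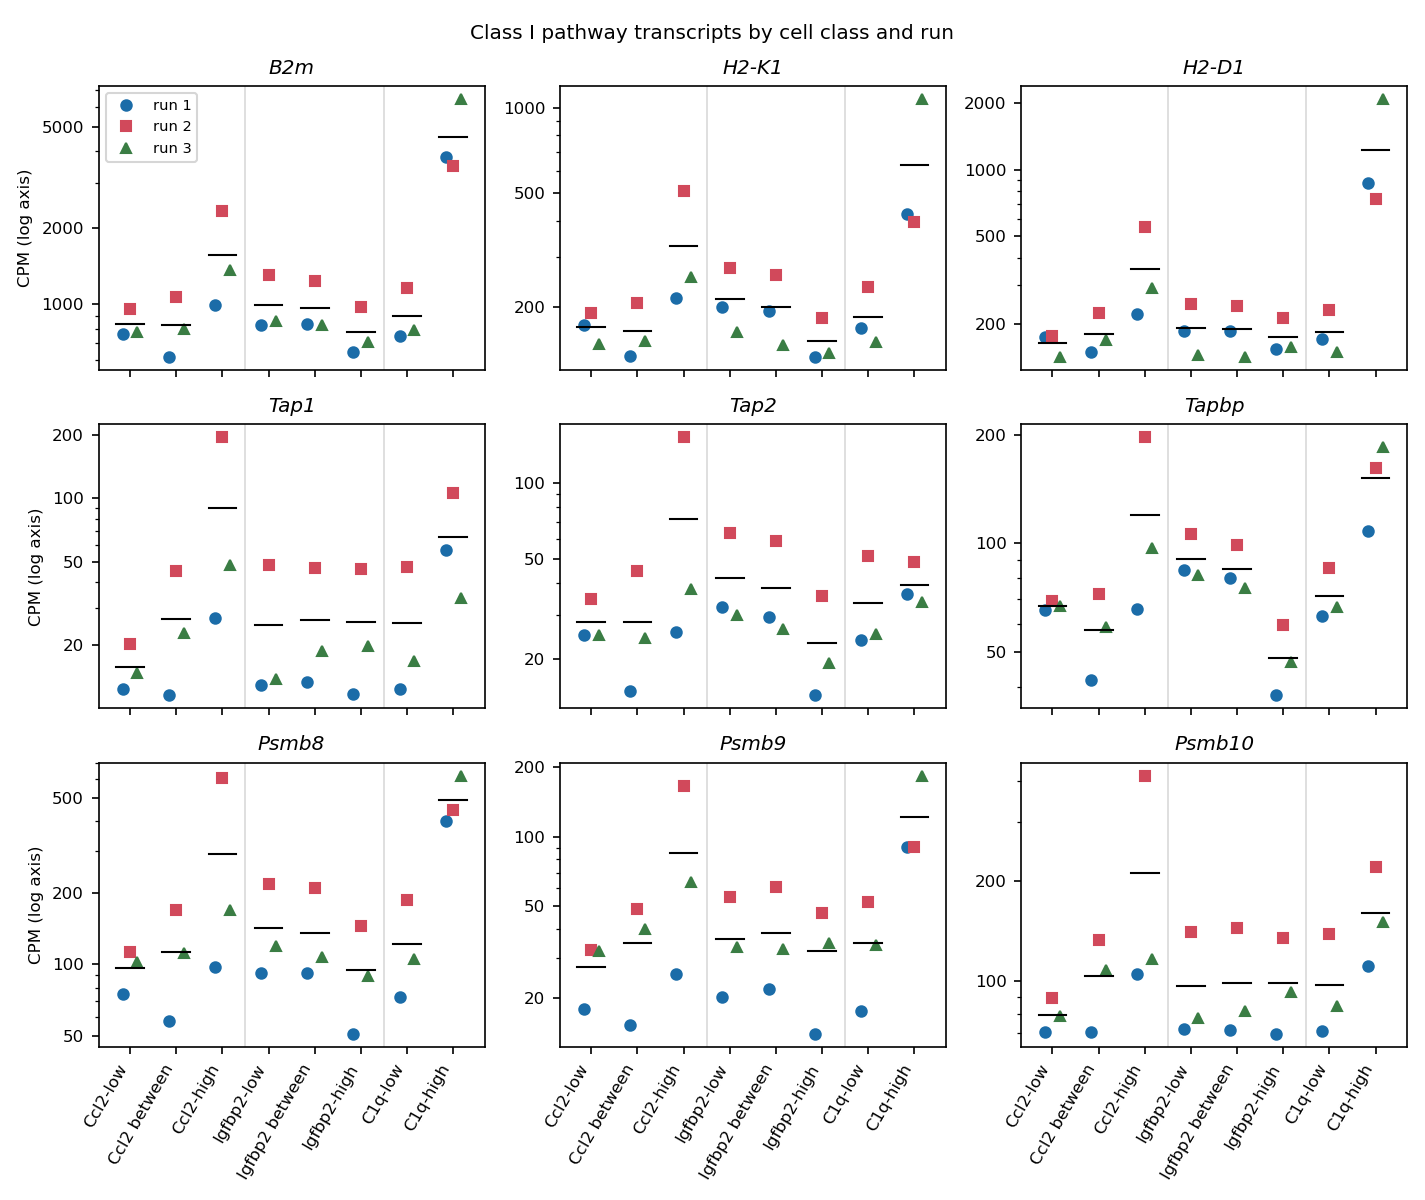
Each panel plots 1 gene, with the level in CPM on a log axis, cell classes along the x axis (between: cells between the limits for high and low; C1q-low: cells under 1), 1 point per run and the mean of 3 runs as a line. By mean, B2m, H2-K1, H2-D1, Tapbp, Psmb8 and Psmb9 were highest in C1q-high cells, while Tap1, Tap2 and Psmb10 had their highest mean in the Ccl2-high cells, which run 2 lifted.

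The Ccl2 comparison asks which class I genes accompany chemokine transcripts in the sorted glia. Of the 9 genes, 8 were higher in Ccl2-high cells and 0 were lower (edgeR quasi-likelihood test blocked by run, adjusted p under 0.05 over all genes). The gene outside the threshold was Tapbp. Over all 14494 genes tested, 8.22% were higher and 7.87% lower. The median log2 change of the 9 genes was 1.17, against -0.05 over all genes. Tap1 had the largest change and the chain genes B2m and H2-K1 the smallest among those that passed.

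Among the chain genes, B2m stood at 997, 2329 and 1359.7 CPM in the Ccl2-high cells of runs 1, 2 and 3 and at 760, 961 and 779 CPM in the Ccl2-low cells. The 2 classes did not overlap, and the high class of run 2 stood far above the rest. The fitted log2 change was 0.85 ± 0.17 (SE, 3 run pairs; edgeR adjusted p = 0.00897). H2-K1, a classical heavy chain, stood at 214, 510 and 254 CPM against 173, 191 and 148 CPM. It too was higher in each run without overlap, by 0.88 ± 0.20 on the log2 scale (edgeR adjusted p = 0.0173). H2-D1, the other classical heavy chain, stood at 223, 551 and 293 CPM against 175, 176 and 143 CPM. Its log2 change was 1.06 ± 0.22 (edgeR adjusted p = 0.0116), and the classes again did not overlap. H2-K1 and H2-D1 are close relatives: 10.2% and 10.1% of the 50-base stretches at the ends of their transcripts also occur in other genes, among them each other. How the counting assigned such reads is not given in the sources used here.

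Peptide transport showed the widest spread. Tap1, the first subunit of the transporter, stood at 27.0, 195 and 48.0 CPM in Ccl2-high cells and at 12.5, 20.3 and 14.8 CPM in Ccl2-low cells. That is 2.16, 9.65 and 3.24 times the low class, and the value of run 1 rests on 18 UMIs. The fitted log2 change was 2.26 ± 0.37 (edgeR adjusted p = 0.00384). Tap2, the other subunit, stood at 25.5, 152 and 38.0 CPM against 24.9, 34.5 and 24.99 CPM, and the classes overlapped. In run 1 the 2 Tap2 values were nearly equal, and the fitted change was 1.17 ± 0.35 (edgeR adjusted p = 0.0473), close to the threshold. Tapbp, the gene of tapasin, stood at 65.9, 197 and 97.0 CPM against 65.4, 69.2 and 67.3 CPM. Its change of 0.79 ± 0.26 did not pass (edgeR adjusted p = 0.0658), and in run 1 the classes differed by a factor of 1.01. UMIs of Tap2 per UMI of Tap1 were 0.944, 0.776 and 0.792 in Ccl2-high and 2.00, 1.70 and 1.69 in Ccl2-low cells, so this ratio differed between the classes in every run. No test was run on ratios.

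The 3 immunoproteasome subunits replace constitutive catalytic subunits of the proteasome: Psmb8 takes the place of Psmb5, Psmb9 of Psmb6 and Psmb10 of Psmb7. Psmb8 stood at 97.4, 605 and 169 CPM in Ccl2-high cells against 75.3, 113 and 103 CPM in Ccl2-low cells. It was higher in each run, with overlap between runs, by 1.25 ± 0.35 on the log2 scale (edgeR adjusted p = 0.0365). Psmb9 stood at 25.5, 165 and 63.7 CPM against 17.9, 32.4 and 32.0 CPM, a change of 1.497 ± 0.316 (edgeR adjusted p = 0.0119). Psmb10 stood at 105, 414 and 116 CPM against 70.5, 88.9 and 78.9 CPM, a change of 1.19 ± 0.32 without overlap (edgeR adjusted p = 0.0299). The constitutive subunits moved less: of the 14 genes of the constitutive 20S proteasome 2 were higher and 0 lower, with a median of 0.29. The 2 were Psma7 (0.57 ± 0.11) and Psma3 (0.43 ± 0.11), structural subunits of the outer rings. UMIs of Psmb8 per UMI of Psmb5 were 0.382, 2.31 and 0.756 in Ccl2-high and 0.289, 0.472 and 0.480 in Ccl2-low cells.

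**Figure D2:**
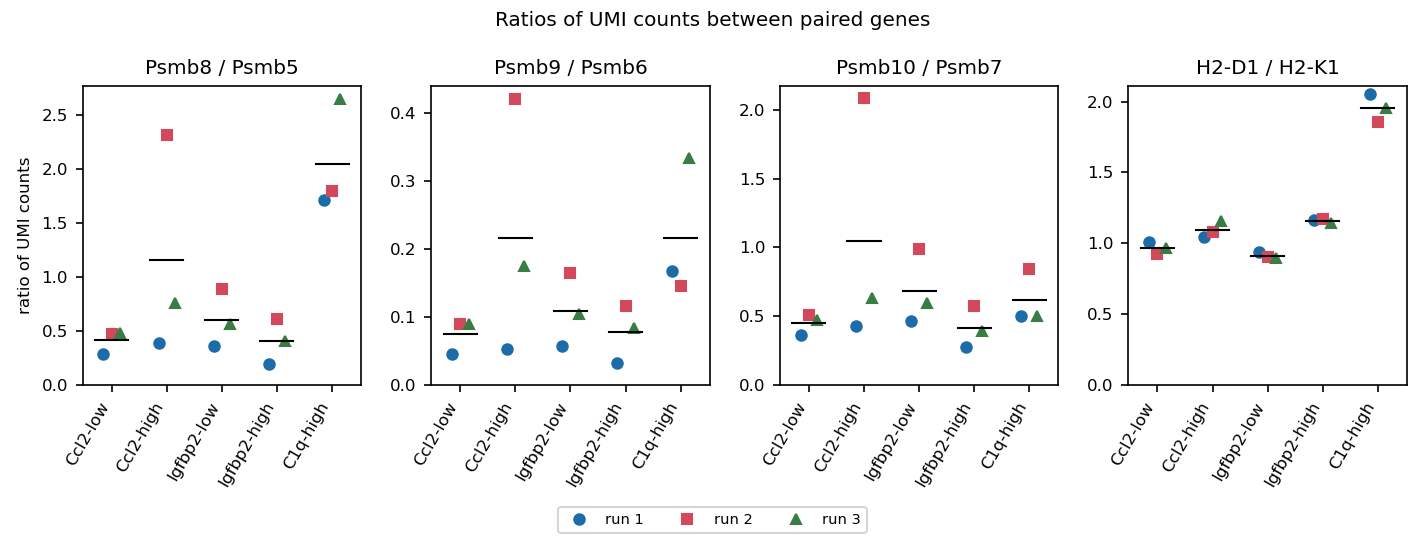
Each panel plots the ratio of UMI counts of 2 genes on a linear axis from 0, with 1 point per run and the mean of 3 runs as a line. Among the glial classes shown, the immunoproteasome ratios were highest in Ccl2-high cells of run 2, where Psmb10 per Psmb7 reached 2.08, while H2-D1 per H2-K1 hardly varied between runs and was highest in C1q-high cells.

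Run 2 set much of the size of these changes. Without it, 7 of the 9 genes stayed above the threshold, at log2 changes of 0.53 to 1.47, while Tap2 fell to 0.39 and Tapbp to 0.29. Without run 1, which has 34 Ccl2-high cells, all 9 passed, at 1.10 to 2.62, and without run 3 all 9 passed as well. Over all genes, 8.16% were higher without run 2, 5.64% without run 1 and 7.16% without run 3. With no run block, Tap1 alone passed, beside 6.3% of all genes higher. In the cells that the authors kept in their processed table, Tap1 and Psmb9 alone passed, beside 2.25%.

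Other cell types moved with the Ccl2 classes. Cells with at least 5 per 10000 UMIs of Rgs5, S100b and Pax2 together, genes of astrocytes and pericytes, made up 11.8%, 2.08% and 23.8% of Ccl2-high cells in runs 1, 2 and 3 and 1.15%, 0.690% and 0.436% of Ccl2-low cells. The 4 pericyte markers summed to 466, 70.1 and 539 CPM in Ccl2-high and 63.5, 47.0 and 32.8 CPM in Ccl2-low cells. The 5 astrocyte markers summed to 1287, 628 and 1794 CPM against 760, 617 and 510 CPM, and the 10 Müller markers to 4046, 8599 and 5827 CPM against 15730, 14350 and 14220 CPM. All markers of these 3 lists had UMIs in both classes. When those cells and cells with the macrophage gene Lyz2 at 5 per 10000 were left out, a choice made after the marker levels were seen, 4 of the 9 genes passed: H2-D1 at 0.86, Tap1 at 2.24, Psmb9 at 1.43 and Psmb10 at 1.16. Over all genes 8.44% were higher in that fit. B2m then stood at 0.58 and H2-K1 at 0.64. In run 1, 4 of 34 Ccl2-high cells bore the markers, and in UMIs per cell the B2m ratio of high to low without them was 1.52. By share of RNA, the B2m ratio was 0.961, 2.42 and 1.35 in the remaining cells of runs 1, 2 and 3. On that scale the higher level in run 1 was present only with the marker-bearing cells. In run 1 the ratio was also below 1 for Tap2 (0.928), Tapbp (0.738), Psmb8 (0.970) and Psmb9 (0.895), and it was 1.00 for H2-K1. It stayed above 1 in run 1 for H2-D1 (1.13), Psmb10 (1.24) and Tap1, whose ratios were 1.57, 9.81 and 3.22.

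Microglial RNA was measured in the glia as well. The 14 microglial markers beside C1q summed to 57.0, 51.9 and 57.1 CPM in Ccl2-high and 55.8, 44.97 and 36.6 CPM in Ccl2-low cells, with Fcrls at 0 in the former. If all C1q UMIs of the Ccl2-high cells had come from C1q-high cells with their other RNA, the B2m brought along would have been 1.05, 0.603 and 0.597 CPM, or at most 0.105% of the level measured. Cells at or above the C1q limit had been left out of these classes, which caps the C1q level used here. The calculation does not cover RNA of monocytes or macrophages without C1q, and the part of such RNA in the class I levels was not tested. The 8 monocyte and macrophage markers summed to 4.50, 55.0 and 68.9 CPM in Ccl2-high and 9.91, 3.41 and 1.72 CPM in Ccl2-low cells.

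Levels were also read in narrower steps of Ccl2. In run 2, Tap1 stood at 19.0 CPM in cells without a Ccl2 UMI, then at 30.6, 75.5, 135, 175 and 242 CPM at above 0 to 5, 5 to 10, 10 to 20, 20 to 40 and 40 or more Ccl2 UMIs per 10000. B2m in that run went from 998 CPM without Ccl2 through 928 and 1330.1 CPM to 2741 CPM in the highest step. Tap1 thus climbed at every step in run 2, while B2m did so only from the second step on. In run 3 Tap1 stood at 14.8, 17.5, 38.4, 48.1, 28.7 and 110 CPM over the same steps, and the highest rests on 15 cells. In run 1, Tap1 stayed between 10.2 and 12.8 CPM up to 10 per 10000 and reached 20.2 and 56.6 CPM in the next steps, of 26 and 8 cells, while no cell reached 40.

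**Figure D3:**
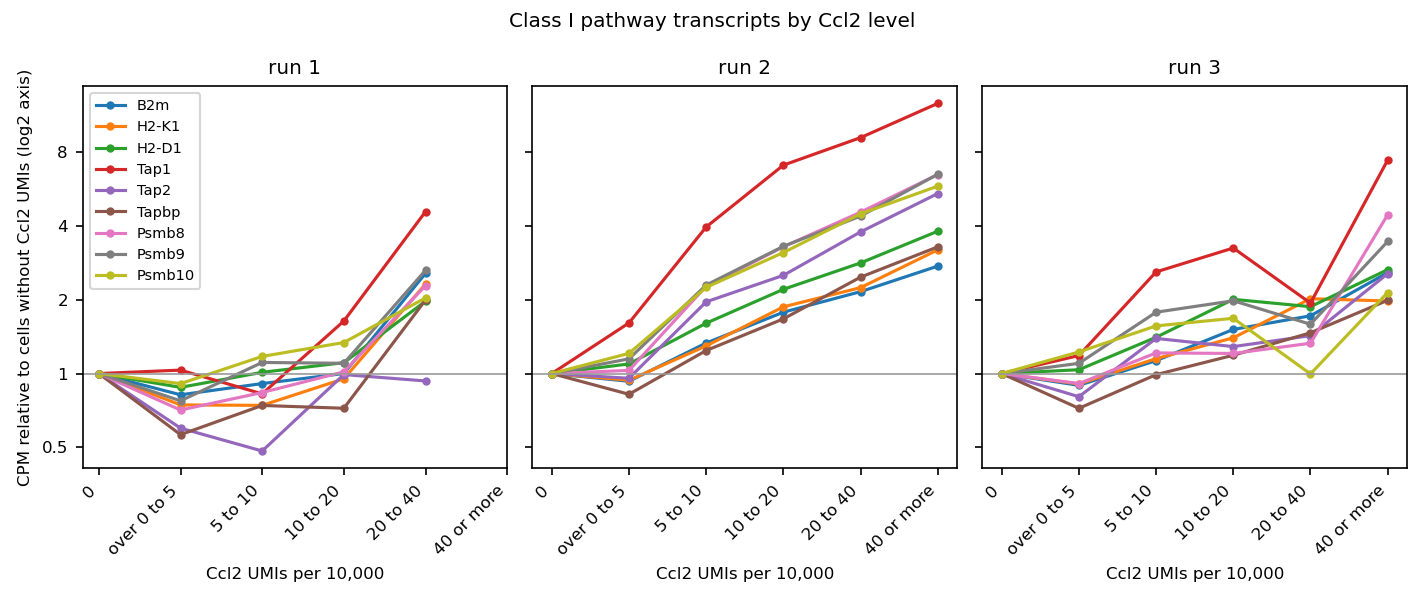
Each panel shows 1 run, with Ccl2 UMIs per 10000 along the x axis and, on a log2 axis, each gene's CPM relative to cells without Ccl2 UMIs. In run 2 Tap1 lies above the other 8 genes at every step above 0, and in run 1 the last step rests on 8 cells.

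Shares of cells with a Tap1 UMI were compared after thinning each cell to 3500 UMIs, since Ccl2-high cells were deeper, with a median of 15353 against 9818 UMIs. The thinned shares were 17.6%, 46.9% and 13.6% of Ccl2-high and 4.27%, 6.45% and 4.77% of Ccl2-low cells. Before thinning they were 32.4%, 84.5% and 32.0% against 12.6%, 18.8% and 12.7%. In run 1 the thinned share was higher in Ccl2-high cells for Tap1 and Psmb8 and lower for the other 7 genes, against the CPM. B2m, for example, had a UMI in 73.5% of Ccl2-high and 86.2% of Ccl2-low cells there, and for H2-D1 the shares were nearly equal, at 41.2% and 41.3%. No order was read from the shares of those 7 genes in run 1. Class I genes are made by nearly all cells with a nucleus, so no cell type that lacks them could serve as a background.

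Genes around the pathway, in lists chosen with earlier results of these data known, gave the following counts in the Ccl2 comparison. Of 26 tested genes for other class I chains, peptide loading and regulation, 10 were higher and 4 lower. Among them H2-T22, a nonclassical chain, was higher by 1.38 ± 0.25, the proteasome activator genes Psme2 by 0.75 ± 0.21 and Psme3 by 0.56 ± 0.16, and the chaperone gene Calr by 0.41 ± 0.09. Interferon-induced genes were higher in 24 of 29 cases and lower in 0, with a median of 1.67. The chemokine gene Cxcl10 was higher by 4.86 ± 0.30, Isg15 by 2.11 ± 0.27, Ifit3 by 1.61 ± 0.30 and Bst2 by 1.32 ± 0.20. Of 15 NF-kB genes, 11 were higher and 0 lower, including the inhibitor gene Nfkbia (2.39 ± 0.13) and the subunit genes Nfkb2 (1.61 ± 0.18) and Relb (1.53 ± 0.18). Of 11 interferon receptor and signal genes 1 was higher, Ifngr2 (0.64 ± 0.13). MHC class II genes, which present peptides from outside the cell, went the other way: 4 of 6 were lower and 0 higher, with Cd74 at -1.75 ± 0.48 and H2-Aa at -1.98 ± 0.58. Of 25 cell cycle genes 15 were higher, among them Rrm2 (1.12 ± 0.12) and Pcna (0.76 ± 0.12). Beside these counts, 8.22% of all genes were higher and 7.87% lower.

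In the Igfbp2 comparison, which asks about the glia that divide, 5 of the 9 genes were lower in Igfbp2-high cells and 0 were higher, as shares of RNA. Of 14611 genes tested, 39.9% were higher and 41.6% lower, so the count of 5 of 9 stands close to that background. The depth of the classes differed widely, with a median of 19952 UMIs in Igfbp2-high and 9268 in Igfbp2-low cells. Counted as UMIs per cell, 7 of the 9 genes were higher in Igfbp2-high cells and 0 lower. On that scale 74% of all genes were higher and 12.4% lower, with a median log2 change of 0.99, so the 7 of 9 stand close to that background too. The sign of the estimate for B2m, H2-K1, H2-D1, Tap2, Tapbp, Psmb8 and Psmb9 was opposite on the 2 scales. Of these, H2-D1 and Psmb9 did not pass by share of RNA, so no reversal is shown for them. None is shown for Tap2 and Tapbp either, whose UMIs per cell were not higher in every run. Their ratios of Igfbp2-high to Igfbp2-low cells were 0.916, 1.14 and 1.41 for Tap2 and 0.931, 1.13 and 1.26 for Tapbp. On both scales Tap2 and Tapbp had the lowest values of the 9 genes. Tap1, the partner subunit of Tap2, had the highest estimate by share of RNA, at 0.15, which did not pass.

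Tapbp stood at 38.0, 59.7 and 47.0 CPM in Igfbp2-high and at 84.2, 106 and 81.8 CPM in Igfbp2-low cells. The classes did not overlap, and the log2 change was -0.88 ± 0.06 (edgeR adjusted p = 1.64e-06), or 0.14 in UMIs per cell. Tap2 stood at 14.3, 35.7 and 19.3 CPM against 32.3, 63.4 and 30.0 CPM. It was lower within each run, with overlap between runs, by -0.83 ± 0.08 (edgeR adjusted p = 1.5e-05), and in UMIs per cell the change was 0.19. Psmb8 stood at 51.1, 145 and 89.1 CPM against 92.0, 217 and 119 CPM, a change of -0.57 ± 0.07 (edgeR adjusted p = 5.64e-05). H2-K1 stood at 133, 183 and 138 CPM against 199, 274 and 163 CPM, a change of -0.43 ± 0.07 (edgeR adjusted p = 0.000408). B2m stood at 646, 971 and 709 CPM against 829, 1298 and 861 CPM. It was lower in each run by share of RNA, at -0.31 ± 0.06 (edgeR adjusted p = 0.000829), while UMIs per cell were 12.8, 21.5 and 14.1 against 7.93, 14.2 and 7.79.

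The other 4 genes did not pass by share of RNA. H2-D1 changed by -0.08 ± 0.07 (edgeR adjusted p = 0.308) and Tap1 by 0.15 ± 0.11 (0.234). Psmb9 changed by -0.18 ± 0.09 (0.0829) and Psmb10 by 0.09 ± 0.06 (0.213). Of the 14 constitutive proteasome genes 13 were higher and 0 lower, Psma7 by 0.91 ± 0.06 and Psmb6 by 0.36 ± 0.05, where 39.9% of all genes were higher. The other, Psmb5, stood at 0.06 ± 0.05, below the value of Psmb10, and the difference between the 2 lists was not tested. UMIs of Psmb8 per UMI of Psmb5 were 0.193, 0.606 and 0.406 in Igfbp2-high and 0.358, 0.883 and 0.562 in Igfbp2-low cells. UMIs of H2-D1 per UMI of H2-K1 were 1.16, 1.17 and 1.15 against 0.939, 0.901 and 0.893, and these ratios varied little between the runs.

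**Figure D4:**
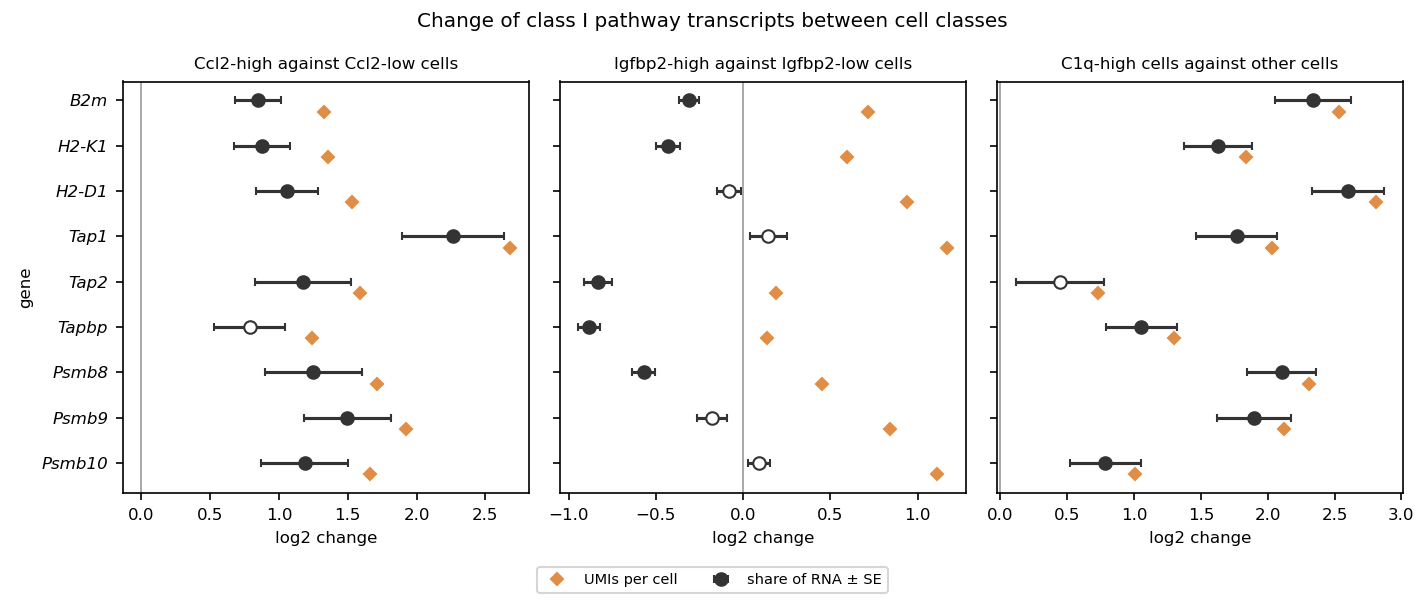
Each panel plots, for 1 comparison, the log2 change of each gene as a share of RNA (circles with SE, filled where the edgeR adjusted p was under 0.05) and as UMIs per cell (diamonds). Both scales agree in sign in the Ccl2 and C1q panels, while in the Igfbp2 panel 7 genes lie on opposite sides of 0.

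Cell division and cells with Rgs5, S100b and Pax2 both moved with Igfbp2. At 5 per 10000 or more, the latter made up 3.41%, 3.49% and 3.79% of Igfbp2-high cells in runs 1, 2 and 3. Their shares of Igfbp2-low cells were 0.453%, 0.114% and 0.113%. The 5 astrocyte markers went the other way, at 316, 244 and 226 CPM in Igfbp2-high against 1073, 910 and 738 CPM in Igfbp2-low cells. All 25 cell cycle genes were higher in Igfbp2-high cells, Rrm2 by 5.60 ± 0.08 and Cdk1 by 5.37 ± 0.07. Among cells with under 1 cell cycle UMI per 10000, which left 143, 124 and 161 Igfbp2-high cells, B2m was higher by 0.28 and H2-D1 by 0.42, and Tap2, Psmb8 and Psmb9 were lower. Over all genes 23.8% were higher and 22.4% lower in these cells, so 2 and 3 of 9 are not far from the background. Of these cells 16.8%, 21.0% and 22.4% carried Rgs5, S100b and Pax2 at 5 per 10000. Without them, B2m stood at -0.034 (edgeR adjusted p = 0.735) and H2-D1 at 0.034 (0.821), while Tap2 (-0.62), Tapbp (-0.41), Psmb8 (-0.44) and Psmb9 (-0.66) were lower, 4 of 9 beside 23.4% of all genes.

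Around the pathway, interferon-induced genes were lower in 24 of 30 cases and higher in 4 in Igfbp2-high cells, with a median of -0.75. Ifit3 was lower by -1.59 ± 0.11 and Isg15 by -0.53 ± 0.05, whereas Bst2 was higher by 0.91 ± 0.06. All 6 MHC class II genes tested were lower, with Cd74 at -3.13 ± 0.55 and H2-DMa at -2.05 ± 0.15. Of 11 interferon receptor and signal genes 7 were lower and 2 higher. The receptor genes Ifngr1 and Ifngr2 were higher, by 0.57 ± 0.07 and 1.21 ± 0.09. Of 25 genes for other class I chains, loading and regulation 11 were higher and 12 lower. The general chaperones Calr (1.45 ± 0.06) and Pdia3 (0.73 ± 0.08) were among the higher and the proteasome activator gene Psme1 (-0.43 ± 0.05) among the lower. NF-kB genes were higher in 7 and lower in 8 of 15 cases. Over all genes 39.9% were higher and 41.6% lower, so the counts of these last 2 lists stand close to that background.

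C1q-high cells carried more of 8 of the 9 genes than the other cells, and 0 were lower. Of 14466 genes tested, 10.5% were higher and 13.9% lower, and the median log2 change was 1.77 for the 9 genes and -0.37 for all genes. H2-D1 stood at 868, 736 and 2094 CPM in the C1q-high cells of runs 1, 2 and 3 and at 172, 233 and 150 CPM in the other cells. The change of 2.60 ± 0.27 (edgeR adjusted p = 2.42e-20) was the largest among the 9 genes, and the classes did not overlap. By run, H2-D1 stood at 5.04, 3.16 and 14 times the level of the other cells. Because the test shares its estimate of the spread over genes, the small p-values here do not measure the spread of a single gene between runs. B2m stood at 3788, 3494 and 6433 CPM against 747, 1153 and 794 CPM, a change of 2.34 ± 0.28 (edgeR adjusted p = 7e-15). Psmb8 stood at 399, 446 and 619.9 CPM against 73.3, 186 and 105 CPM, a change of 2.11 ± 0.26 (edgeR adjusted p = 1.18e-14). Both were higher in every run, and run 3, with 7 cells, was the highest for each of these 3 genes.

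H2-K1 changed less, by 1.63 ± 0.26, and UMIs of H2-D1 per UMI of H2-K1 were 2.05, 1.85 and 1.95 in C1q-high cells against 1.02, 0.995 and 0.995 in the others. Psmb9 changed by 1.89 ± 0.28, Tap1 by 1.77 ± 0.30, Tapbp by 1.05 ± 0.27 and Psmb10 by 0.78 ± 0.27. Tap2 did not pass, at 0.44 ± 0.33 (edgeR adjusted p = 0.367), with 36.2, 48.4 and 33.5 CPM against 23.9, 51.1 and 25.2 CPM, of which run 3 rests on 2 UMIs. Without run 1, which holds 40 of the 62 cells, 5 genes passed, and Tap1, Tapbp and Psmb10 did not. Over all genes 4.76% were higher in that fit. With each cell thinned to 3500 UMIs, the chain genes B2m, H2-K1 and H2-D1 passed together with Psmb8, beside 4.49% of all genes higher.

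These 62 cells carried the markers of microglia and also those of monocytes and macrophages, and the lists do not tell these cell types apart. The 14 markers beside C1q, all of them detected, summed to 15820, 9578 and 15300 CPM against 51.5, 44.9 and 36.2 CPM in the other cells. The 8 monocyte and macrophage markers summed to 6214, 5626 and 8561 CPM, and the 3 T and NK cell markers in the table were at 0. The 10 Müller markers, Apoe among them, summed to 13010, 5823 and 7723 CPM, against 14750, 12550 and 12840 CPM in the other cells. Whether that RNA came from Müller glia or was made by the C1q-high cells themselves was not tested. Whether glial RNA added to the class I levels of these cells was not tested either. None of the 62 was among the cells of the authors' processed table. All 6 MHC class II genes tested were higher, Cd74 by 6.43 ± 0.33 and H2-Ab1 by 4.84 ± 0.45. Of 30 interferon-induced genes 13 were higher and 3 lower, with Irf7 at 2.19 ± 0.26 and Isg15 at 1.45 ± 0.26. Of 25 genes for other class I chains, loading and regulation 8 were higher and 0 lower, and of 14 constitutive proteasome genes 2 and 0. Beside these counts, 10.5% of all genes were higher and 13.9% lower.

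Whether the Ccl2 difference depended on Igfbp2 was tested as an interaction over 12 sums, Ccl2-high and Ccl2-low cells by Igfbp2 class and run. None of the 9 genes passed (edgeR), with log2 differences from -0.66 ± 0.45 for Tap1 to 0.30 ± 0.35 for Tapbp and unadjusted p from 0.167 to 0.906. Of 13824 genes tested, 0.615% were higher and 0.738% lower, and 2159 had an unadjusted p under 0.05. With DESeq2 no member passed either. The sum of Ccl2-high, Igfbp2-low cells of run 1 holds 5 cells, which limits the differences that could be detected. In run 2, with 309 and 444 Ccl2-high cells, Tap2 was 4.56 times the Ccl2-low level in Igfbp2-high cells and 5.15 times in Igfbp2-low cells. B2m was 2.61 and 2.51 times the Ccl2-low level there, H2-D1 2.67 and 3.69 times, and Psmb10 4.14 and 5.24 times.

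Over these 12 sums, the genes whose levels ran most like the mean of the 9 were Trim30a (Pearson r = 0.961), H2-T22 (0.958), Gbp5 (0.952), Gbp2 (0.946), Ifitm3 (0.940), Rnf213 (0.939), Gbp4 (0.939) and Isg15 (0.938), of 5660 genes at 20 CPM or more. The sums share 3 libraries, and r is a description. Without the sum of 5 cells, r lay between 0.952 for Rnf213 and 0.984 for H2-T22.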

How the data were processed

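Deposited were UMI counts of each cell and gene, which per the submitters' processing notes the authors made with Cell Ranger on mm10. A deposited table of natural log values, made by the authors with Seurat 2.3.4 per the same notes, holds 13511 of 24695 cells and equalled ln(1 + 10000 × count / total) to within 7.37e-07. How its cells were chosen is not given in the sources used here. Results came from the counts. The 9 genes, classes and lists were chosen with earlier results of these data known.

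A cell needed 500 detected genes and no more than 20% mitochondrial UMIs. This kept 24672 cells, removed 23 and left a lowest total of 3538 UMIs. Totals before this filter were 94858762, 122888236 and 97032672 UMIs in runs 1, 2 and 3. Doublets were not removed, and pairs of runs shared 83 to 108 barcodes. Counts summed by run and class went through filterByExpr and TMM scaling into the quasi-likelihood test of edgeR 4.0.16 (R 4.3.3), blocked by run because both classes come from the same library. P-values were Benjamini-Hochberg adjusted over all genes tested; class-defining genes were left out of the tests. A positive log2 change means higher in the high class, and its SE was taken as |change| / √F. CPM are counts per 1000000 UMIs of the class. DESeq2 1.42.0 was the other tool; the alternatives tried are given with their effects below. Other named genes were up to 4 called genes per list by mean CPM, and the 8 most like the 9 by Pearson correlation of log2(CPM + 1).

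On simulated counts with 200 changed genes, 50% of 2-fold changes were recovered in the Ccl2 comparison (14495 genes) and 88% in the Igfbp2 comparison (14612). The share was 3% in the C1q comparison (14469) and 13% in the interaction (13826). Of 1.5-fold changes, 9%, 82%, 0% and 4% were recovered in the same order. Of all calls, 3.28%, 5.03%, 0% and 0% were false. The Ccl2, Igfbp2 and C1q fits of the data called far more than 200 genes, which makes the adjusted threshold less strict. The recovered shares therefore do not carry over to those fits.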

Additional observations from a re-analysis of the deposited data

How the results depend on the processing

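Of 153 member results under alternatives in the Ccl2 comparison, 124 kept direction and side of the threshold, 21 no longer passed, 8 newly passed and 0 changed sign. The numbers were 119, 7, 11 and 16 of 153 for Igfbp2, 77, 12, 0 and 1 of 90 for C1q, and 115, 0, 0 and 11 of 126 for the interaction. The cause of these changes was not tested. Few cells limit the Ccl2-high class of run 1 and the C1q-high class of run 3. The C1q comparison could not be run on the authors' processed table, which holds no C1q-high cell.

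With no replicate block, although the pairing of classes within a run comes from shared libraries, 1 member was higher for Ccl2 and 1 lower for Igfbp2, and in the interaction 7 genes higher and 20 lower.

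Members higher in the Ccl2 comparison numbered 2 in the authors' cells and 4 without cells with Rgs5, S100b and Pax2 or Lyz2 at 5 per 10000 (added after seeing the data). All genes higher and lower there numbered 4458 and 487 by UMIs per cell, 1819 and 1740 against cells with 0 Ccl2 UMIs, 307 and 232 in the authors' cells, 522 and 262 in Igfbp2-low cells and 493 and 354 outside the cycle. Leaving out 1 run gave 826 to 1178 genes higher and 751 to 1271 lower.

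For Igfbp2, UMIs per cell gave 7 members higher and 0 lower, and 10814 genes higher and 1810 lower. On that scale B2m changed by 0.71, H2-K1 by 0.59, H2-D1 by 0.94, Tap2 by 0.19, Tapbp by 0.14, Psmb8 by 0.45 and Psmb9 by 0.84; UMIs per cell moved the median of all genes to 0.99 for Igfbp2 and 0.38 for Ccl2. Outside the cycle, 2 members were higher and 3 lower, of 2959 and 2782 genes, with B2m at 0.28, H2-K1 at 0.15, H2-D1 at 0.42 and Tap1 at -0.039. Without the marker-bearing cells as well, 3012 genes were higher and 2862 lower, with H2-D1 at 0.034 and Tap1 at -0.26. Tap1 was at -0.24 and Psmb10 at -0.20 in the authors' cells, and leaving out 1 run moved Tap1 between -0.033 without run 3 and 0.26 without run 2.

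For C1q, thinning to 3500 UMIs gave 4 members and 576 genes higher and 1288 lower, DESeq2 1127 lower and UMIs per cell 1052 lower. Leaving out 1 run gave 5 to 8 members higher, 691 to 1740 genes higher and 850 to 1997 lower, and Tap2 from -0.088 without run 1 to 0.68 without run 2.

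In the interaction, genes higher and lower numbered 43 higher by UMIs per cell, 9 and 64 with C1q cells kept, 54 higher after thinning, 187 and 285 in the authors' cells, 42 and 67 outside the cycle, 165 lower with no filter on low counts and 199 lower without the marker-bearing cells. Leaving out 1 run gave 0 to 278 higher and 0 to 402 lower. B2m turned to -0.49 with C1q cells kept, -0.15 in the authors' cells and -0.44 outside the cycle, where Tapbp was at -0.085. Leaving out 1 run moved H2-K1 between -0.36 without run 3 and 0.50 without run 2, H2-D1 between -0.46 without run 3 and 0.21 without run 2, and Psmb9 between -0.15 without run 1 and 0.030 without run 3. Psmb8 was at 0.24 with DESeq2, and Psmb9 at 0.0040 with DESeq2, 0.012 without run 2 and 0.034 after thinning.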
